A study of Mus musculus with 6 samples.

Results

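Glycolysis splits glucose into pyruvate through a chain of enzymes, the pentose phosphate branch takes glucose-6-phosphate off for NADPH and ribose, and pyruvate is either reduced to lactate or carried into mitochondria. Many of these enzymes are induced in low oxygen by hypoxia-inducible factor (HIF), whose alpha subunit HIF1A is marked for destruction by the prolyl hydroxylases EGLN1 and EGLN3. Podocytes, the epithelial cells around kidney capillaries, are known to use glycolysis for much of their energy, and raised glucose is a standard culture model of diabetic kidney injury. The genes described are those whose symbol equals one of 35 named symbols of glucose uptake, glycolysis, lactate, pentose phosphate, pyruvate entry and HIF control. Of the 35 symbols, 34 had values among the 9120 genes of the table, under 35 identifiers, since Aldoa had a pair of them. Tpi1 is not analysed here.

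The cells were MPC5, a conditionally immortalised mouse podocyte line of kidney origin. All were grown at 33 °C with interferon gamma (20 U/ml), differentiated for 7 days at 37 °C without it, and kept in high glucose (30 mM). The 3 knockdown libraries came from cells given siRNA against Mettl3, the catalytic subunit of the m6A methyltransferase complex, and the 3 control libraries from cells given a scrambled siRNA, each with a transfection of 6 h. Expression is given in FPKM as deposited, the number of fragments scaled to transcript length and to the fragments mapped in the library. No library in normal glucose is used here, so nothing below compares high with normal glucose.

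Mettl3 measured 3.68, 3.85 and 3.90 FPKM in knockdown replicates 1 to 3, against 5.87, 6.34 and 5.75 FPKM in control replicates 1 to 3, with no overlap between the groups. Of the 8047 genes tested below, 4.01% lay wholly lower in knockdown in this way. Mettl3 itself did not pass the threshold of that test (limma adjusted p = 0.799). Of 13 podocyte markers 3 had a value (Wt1, Synpo and Cd2ap, with Wt1 under 1 FPKM in all 6 libraries), and others, Nphs1 and Podxl among them, had none. Of 8 mesangial or fibroblast markers 7 had values. None of the 8 tubule and 5 immune markers had one. The summed level of the podocyte markers was 14.2 to 16.4 FPKM in knockdown and 12.5 to 15.6 FPKM in control libraries, nearly all of it Cd2ap, and that of the mesangial or fibroblast markers 2590 to 4281 FPKM in knockdown and 2143 to 4157 FPKM in control libraries. The 2 libraries numbered 3, 1 in each group, separated from the remaining 4 on principal component 1 (44.3% of the variance), and their titles carry codes of another form, whose meaning no label states. The depth behind the values is unknown.

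Among the glycolytic genes, a few enzymes held most of the transcript level. Pgk1, which encodes phosphoglycerate kinase, ranked 19 among the 9120 genes by mean FPKM, the muscle-type aldolase gene Aldoa ranked 44 and the pyruvate kinase gene Pkm ranked 45. Together these 3 genes summed to between 1234 and 1416 FPKM per library, where all 34 genes summed to between 2016 and 2276 FPKM. Pgk1 was above both of the others in every library. Aldoa was above Pkm in all 3 knockdown libraries and in control replicate 3 but below it in control replicates 1 and 2, so their order was not fixed.

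The glycolytic enzymes below these 3 covered a wide range of levels. Pgam1, for phosphoglycerate mutase, measured 119.6, 116 and 109 FPKM in knockdown replicates 1 to 3, against 115, 118 and 107 FPKM in controls. Pfkm, the muscle-type phosphofructokinase, averaged 31.9 ± 1.8 FPKM in knockdown and 28.7 ± 4.0 FPKM in control libraries (SD, n = 3 each). Gpi1, for glucose-6-phosphate isomerase, averaged 11.8 ± 0.86 FPKM in knockdown and 11.2 ± 1.3 FPKM in control libraries. Both hexokinases and Gpi1 were thus below the lower glycolytic enzymes other than Gapdh.

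Gapdh, the glyceraldehyde-3-phosphate dehydrogenase gene usually among the most abundant of all transcripts, was listed near the bottom of the table. It measured 1.44, 1.39 and 1.12 FPKM in knockdown replicates 1 to 3, against 1.29, 1.10 and 1.80 FPKM in control replicates 1 to 3, rank 7484 of 9120 by mean. The low listing held in all 6 libraries. In the GENCODE M21 annotation 77 other genes, of which 74 are pseudogenes, match the longest coding Gapdh transcript at 95% identity or more over at least 300 bases. No other gene described here had more than 4 such matches (Pgk1), and 24 of the 35 identifiers had none. None of the 77 Gapdh-like genes had a value in the table. The part of such copies in the listed Gapdh level was not tested, and Gapdh is given here as listed, not as a level.

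Pgk1 with 4, Eno1 and Ldha with 3 each, and Gpi1, Pfkp, Pgam1, Pkm, Ldhb, Pdha1 and Pdhb with 1 each also had near-identical stretches in transcripts of other annotated genes, so their levels carry some uncertainty of read assignment. The second identifier named Aldoa (ENSMUSG00000114515.2, chromosome 7, 126800790 to 126809108, minus strand) adjoins the main one (126795234 to 126800751). It was listed at 0.39, 1.55 and 1.05 FPKM in knockdown replicates 1 to 3, against 0.56, 0 and 0 FPKM in controls. Zeros in this table can be failed estimates, and this identifier did not pass the filter on low values (1 FPKM in at least 3 libraries). The other 34 genes passed and were tested.

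**Figure D1:**
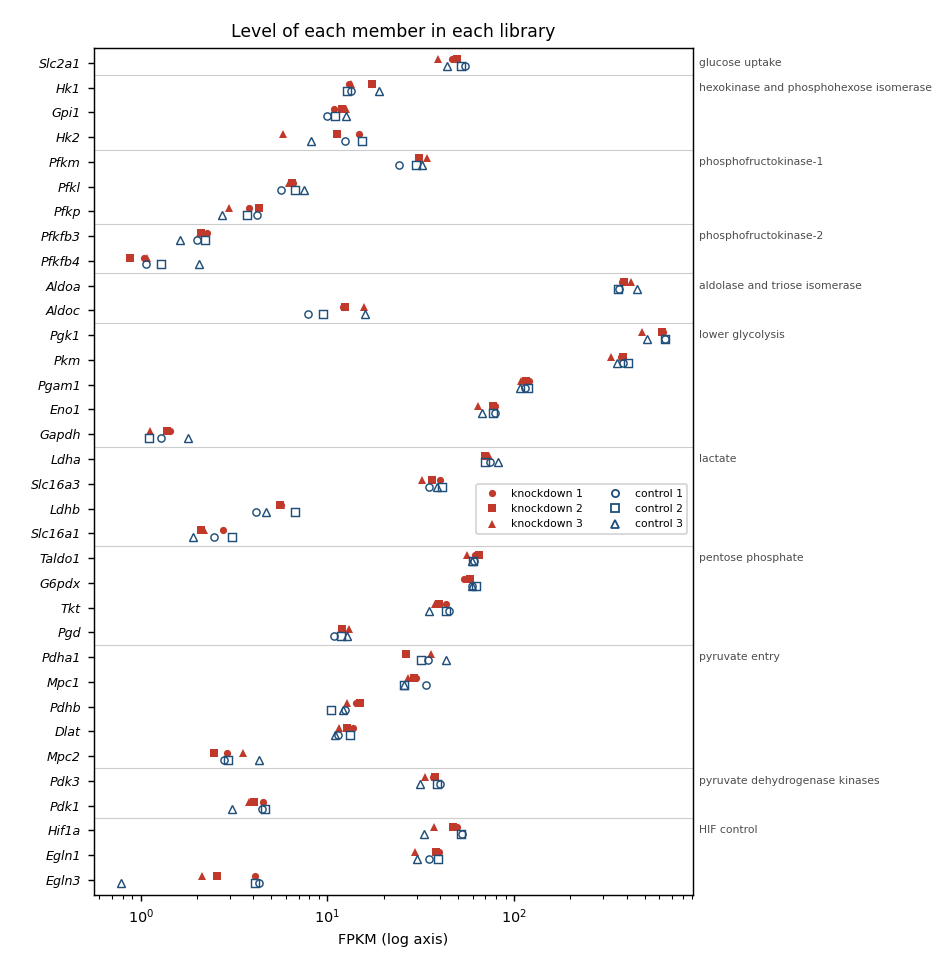
FPKM of the 34 genes on a log axis, grouped by role, with filled symbols for knockdown and open symbols for control libraries (circle, square and triangle for replicates 1, 2 and 3). Pgk1, Aldoa and Pkm lie to the right at 329 to 645 FPKM and Gapdh far to the left, under 2 FPKM. Triangles often sit apart from both other symbols of their group.

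The comparison of Mettl3 knockdown with control asks which transcripts differ when the writer of m6A is reduced under high glucose. None of the genes of glucose metabolism or HIF control passed the threshold: 0 of 34 had a limma adjusted p under 0.05, as did 0 of all 8047 genes tested (0.0%). At an unadjusted p under 0.05 the counts were 0 of 34 and 366 of 8047. The log2 fold change (knockdown minus control, on log2(FPKM + 1)) was above 0 in 16 genes and below 0 in 18, with a median of -0.01 where the median of all genes tested was 0.02. In 24 of the 34 it was smaller than 0.1 in size, and it ran from -0.30 (Pdha1) to 0.30 (Aldoc). The distance from the fold change to either end of its 95% interval had a median of 0.29 and ran from 0.17 to 1.02. These intervals take no account of the number of genes tested, so changes of that size, and larger ones, could go uncalled here. Mettl3, at -0.54 (SE 0.10), was not called (limma adjusted p = 0.799).

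Slc2a1 encodes GLUT1, the main glucose carrier of cultured cells. It measured 46.5, 49.5 and 39.1 FPKM in knockdown replicates 1 to 3, against 54.7, 52.0 and 43.9 FPKM in control replicates 1 to 3. It was lower in knockdown at each of the 3 replicate numbers, but the groups overlapped because replicate 3 was lowest in both. Its log2 fold change was -0.15 (SE 0.12, limma adjusted p = 0.998). With the title code as a covariate the unadjusted p was 0.0247 and the limma adjusted p 0.335. In that fit 4 of the 34 genes (Slc2a1, Aldoc, Pdha1 and Pdhb) had an unadjusted p under 0.05, as did 970 of all 8047.

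At the phosphorylation and splitting steps the groups overlapped throughout. Hk2, the inducible hexokinase, measured 14.7, 11.2 and 5.80 FPKM in knockdown replicates 1 to 3, against 12.4, 15.3 and 8.14 FPKM in controls. Hk1, the constitutive hexokinase, averaged 14.6 ± 2.4 FPKM in knockdown and 15.0 ± 3.4 FPKM in control libraries (SD, n = 3 each). Replicate 3 held the lowest Hk2 of each group, and Hk1 moved in no common way.

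The liver-type phosphofructokinase gene Pfkl averaged 6.39 ± 0.15 FPKM in knockdown and 6.60 ± 0.94 FPKM in control libraries. The platelet-type gene Pfkp measured 3.82, 4.30 and 2.98 FPKM in knockdown replicates 1 to 3, against 4.20, 3.72 and 2.71 FPKM in controls. Phosphofructokinase-2 enzymes set fructose-2,6-bisphosphate, which stimulates phosphofructokinase, and both of their genes were near the floor of the table. Pfkfb3 measured 2.26, 2.11 and 2.07 FPKM in knockdown replicates 1 to 3, against 1.99, 2.20 and 1.62 FPKM in controls. Pfkfb4 measured 1.04, 0.87 and 1.08 FPKM in knockdown replicates 1 to 3, against 1.07, 1.28 and 2.04 FPKM in controls, where replicate 3 was highest. Pfkfb4 was lower in knockdown at each number, with a log2 fold change of -0.29 (SE 0.17). With a pseudocount of 0.1 in place of 1 it was -0.47, the lowest of the 34.

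Aldoc, the brain-type aldolase gene, had the highest log2 fold change of the 34, at 0.30 (SE 0.24, limma adjusted p = 0.998). It measured 12.1, 12.4 and 15.7 FPKM in knockdown replicates 1 to 3, against 7.91, 9.51 and 15.9 FPKM in control replicates 1 to 3. Replicates 1 and 2 of knockdown lay above those of control, and the replicate 3 values were nearly equal. Within the 4 libraries with HG codes the log2 difference was 0.46 (limma unadjusted p = 0.00874, adjusted 0.281), and between the replicate 3 libraries it was -0.01. In the HG-coded fit 3 of the 34 genes and 971 of all 8047 had an unadjusted p under 0.05.

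Lower glycolysis showed little difference between the groups. Pgk1 measured 626, 617 and 484 FPKM in knockdown replicates 1 to 3, against 643, 645 and 516 FPKM in controls, lower in knockdown at each number but overlapping between groups. Pkm measured 374, 382 and 329 FPKM in knockdown replicates 1 to 3, against 382, 409 and 354 FPKM in controls, in the same pattern. The log2 fold changes were -0.06 (95% interval -0.39 to 0.26) for Pgk1 and -0.08 (-0.30 to 0.14) for Pkm. Eno1, for enolase, measured 78.9, 77.3 and 63.9 FPKM in knockdown replicates 1 to 3, against 78.9, 76.9 and 67.2 FPKM in controls, nearly the same at each number.

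The lactate genes divided into an abundant and a scarce partner. Ldha, whose enzyme favours lactate formation, averaged 71.1 ± 2.3 FPKM in knockdown and 75.2 ± 6.2 FPKM in control libraries, and Ldhb, whose enzyme favours pyruvate, averaged 5.61 ± 0.054 FPKM in knockdown and 5.17 ± 1.3 FPKM in control libraries (SD, n = 3 each). Slc16a3 (MCT4, the lactate exporter of glycolytic cells) averaged 36.2 ± 4.0 FPKM in knockdown and 38.2 ± 3.3 FPKM in control libraries. Slc16a1 (MCT1) measured 2.76, 2.10 and 2.19 FPKM in knockdown replicates 1 to 3, against 2.48, 3.09 and 1.89 FPKM in controls. Their log2 fold changes ran from -0.08 to 0.12, and all 4 overlapped between groups.

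In the pentose phosphate branch, the gene of the first and rate-limiting enzyme was the 1 gene of the 34 whose knockdown libraries all lay below every control. G6pdx (ENSMUSG00000031400, glucose-6-phosphate dehydrogenase, chromosome X, 74409483 to 74429194, minus strand) measured 54.0, 57.8 and 57.2 FPKM in knockdown replicates 1 to 3, against 59.7, 62.1 and 59.3 FPKM in control replicates 1 to 3. The mean was 56.3 ± 2.1 FPKM in knockdown and 60.4 ± 1.5 FPKM in control libraries (SD, n = 3 each), 6.75% lower in knockdown. The log2 fold change was -0.10 (SE 0.07, limma unadjusted p = 0.214, adjusted 0.998). Among all genes tested, 4.01% lay wholly lower in this way, so 1 of 34 (2.94%) is near that background.

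The next enzymes of the branch did not follow G6pdx. Pgd, for 6-phosphogluconate dehydrogenase, averaged 12.3 ± 0.60 FPKM in knockdown and 11.8 ± 0.99 FPKM in control libraries, and was higher in knockdown at each number. The transketolase gene Tkt averaged 40.1 ± 2.6 FPKM in knockdown and 40.8 ± 5.3 FPKM in control libraries, and the transaldolase gene Taldo1 60.6 ± 4.5 FPKM in knockdown and 60.2 ± 0.69 FPKM in control libraries (SD, n = 3 each). Their log2 fold changes were 0.06, -0.02 and 0.01 for Pgd, Tkt and Taldo1, none past the threshold.

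The E1 subunits of pyruvate dehydrogenase, which turns pyruvate into acetyl-CoA, had log2 fold changes of opposite sign, neither past the threshold. Pdha1, the catalytic alpha subunit (chromosome X, 160122209 to 160138413, minus strand), measured 26.2, 26.4 and 36.0 FPKM in knockdown replicates 1 to 3, against 34.7, 31.6 and 43.1 FPKM in control replicates 1 to 3. It was lower in knockdown at each number, and replicate 3 was the highest of each group, so that the groups overlapped. The log2 fold change was -0.30 (SE 0.16, limma unadjusted p = 0.111, adjusted 0.998). With the title code as a covariate the unadjusted p was 0.00191, the smallest of the 34, and the limma adjusted p over all genes was 0.164. In that fit 970 of all 8047 genes had an unadjusted p under 0.05. In the 4 HG-coded libraries the log2 difference was -0.32 (adjusted p = 0.280), and between the replicate 3 libraries it was -0.26.

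Pdhb, the E1 beta subunit (chromosome 14, 8165996 to 8173025, minus strand), was higher in knockdown. It measured 14.3, 15.0 and 12.7 FPKM in knockdown replicates 1 to 3, against 12.5, 10.4 and 12.2 FPKM in control replicates 1 to 3, and it was the 1 gene of the 34 whose knockdown libraries all lay above every control. The mean was 14.0 ± 1.2 FPKM in knockdown and 11.7 ± 1.1 FPKM in control libraries (SD, n = 3 each). This gave 0.24 on the log2 scale (SE 0.11, limma unadjusted p = 0.0634, adjusted 0.998). Of all genes tested 6.06% lay wholly higher, against 1 of 34 (2.94%) here. With the title code as a covariate the unadjusted p was 0.0471 and the limma adjusted p 0.406. Whether the fold changes of Pdha1 and Pdhb differ from each other was not tested.

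The rest of the entry to mitochondria showed smaller differences. Dlat, the E2 subunit, averaged 12.6 ± 1.0 FPKM in knockdown and 11.9 ± 1.2 FPKM in control libraries. Of the partners of the mitochondrial pyruvate carrier, Mpc1 averaged 28.7 ± 1.5 FPKM in knockdown and 28.4 ± 4.7 FPKM in control libraries, and Mpc2 2.96 ± 0.54 FPKM in knockdown and 3.34 ± 0.84 FPKM in control libraries (SD, n = 3 each). The kinase gene Pdk3, whose product switches pyruvate dehydrogenase off, measured 36.8, 37.7 and 33.4 FPKM in knockdown replicates 1 to 3, against 40.0, 38.4 and 31.4 FPKM in controls. Pdk1, the hypoxia-inducible kinase, averaged 4.13 ± 0.37 FPKM in knockdown and 4.04 ± 0.84 FPKM in control libraries. The log2 fold changes were 0.04 for Pdk1, -0.02 for Pdk3 and 0.02 for Mpc1.

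HIF control did not separate the groups. Hif1a measured 49.5, 47.3 and 37.3 FPKM in knockdown replicates 1 to 3, against 52.5, 51.8 and 32.8 FPKM in control replicates 1 to 3. Egln1 measured 39.7, 38.0 and 29.6 FPKM in knockdown replicates 1 to 3, against 35.2, 39.0 and 30.2 FPKM in controls. Egln3, itself a HIF target, measured 4.11, 2.56 and 2.12 FPKM in knockdown replicates 1 to 3, against 4.27, 4.09 and 0.78 FPKM in controls. The lowest value of each of the 3 genes in each group was the replicate 3 value. The log2 fold changes were -0.01 for Hif1a (95% interval -0.49 to 0.47), 0.03 for Egln1 (-0.30 to 0.37) and 0.08 for Egln3 (-0.94 to 1.104).

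**Figure D2:**
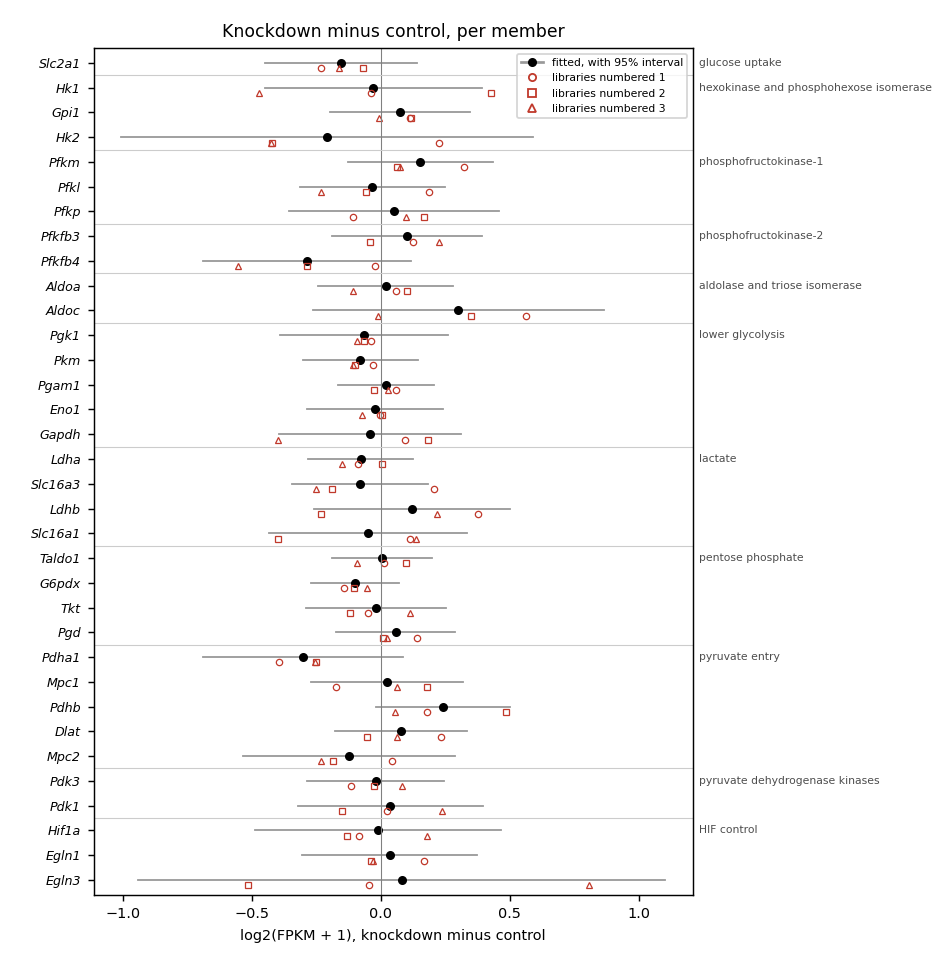
Difference in log2(FPKM + 1), knockdown minus control, for each of the 34 genes grouped by role. Black points and grey lines give the fitted value with its 95% interval and open red symbols the difference between libraries of the same number. All intervals cross 0. The 3 red symbols lie on the left of 0 in 6 genes, Pdha1 and Slc2a1 among them, and on the right in 3 (Pfkm, Pgd and Pdhb).

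Shares within a library do not depend on how the library was scaled, so paralogs that do the same step were also compared as shares of their summed FPKM. Of 10 shares, 2 had groups that did not overlap. Pfkl held 15.9%, 15.4% and 14.4% of the phosphofructokinase FPKM in knockdown replicates 1 to 3, against 16.5%, 16.8% and 17.7% in controls. Pfkfb3 held 68.6%, 70.7% and 65.8% of the Pfkfb3 and Pfkfb4 sum in knockdown replicates 1 to 3, against 65.1%, 63.2% and 44.3% in controls. Each had an exact two-sided permutation p of 0.1, the smallest that 3 libraries against 3 allow, and an adjusted p of 0.5 over the 10 shares. The second rests on genes of about 1 to 2 FPKM.

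The other shares described which isoform predominated in these cells. Pfkm made up 75.9 ± 2.4% of phosphofructokinase FPKM in knockdown and 73.7 ± 2.4% in control libraries, Aldoa 96.7 ± 0.29% of aldolase in knockdown and 97.3 ± 0.63% in control libraries, and Ldha 92.7 ± 0.20% of lactate dehydrogenase in knockdown and 93.5 ± 2.0% in control libraries (SD, n = 3 each). Slc16a3 made up 93.9 ± 0.51% of the lactate carriers in knockdown and 93.9 ± 1.2% in control libraries, and Pdk1 10.3 ± 0.62% of the Pdk1 and Pdk3 sum in knockdown and 9.86 ± 0.90% in control libraries. Among these other shares, that of Hk2 in the Hk1 and Hk2 sum spanned the most percentage points between libraries. This share was 53.0%, 39.1% and 30.2% in knockdown replicates 1 to 3, against 48.1%, 54.7% and 30.0% in controls. It was lowest in replicate 3 of both groups, as was the share of Egln3 in control replicate 3 (2.53%, where the other 5 libraries held 6.31% to 10.8%).

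**Figure D3:**
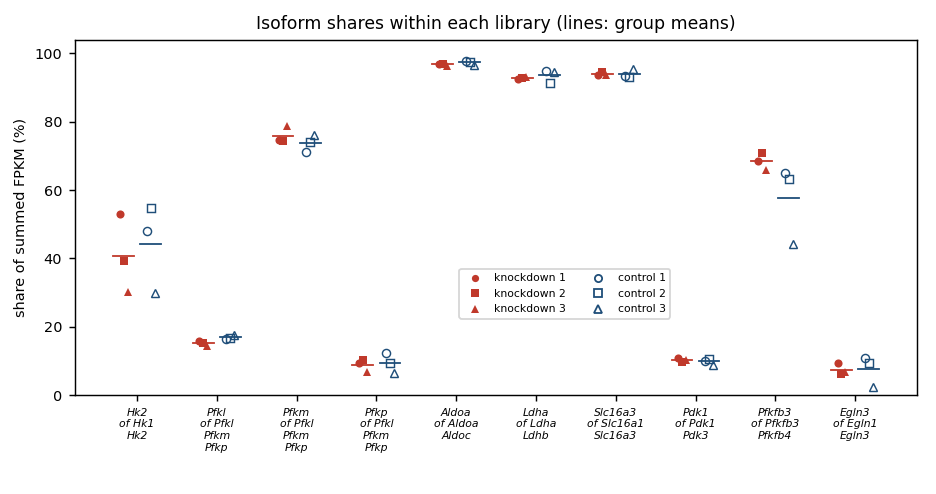
Share of each named gene in the summed FPKM of its paralogs, in percent, for each knockdown (filled) and control (open) library, with lines at the group means. Aldoa, Ldha and Slc16a3 lie above 91% in all libraries, while the Hk2 share spans 30.0% to 54.7%.

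The larger difference within these genes ran between replicate 3 and the other replicates, in both groups. With the knockdown as a term in the fit, 13 of the 34 genes passed the threshold between replicate 3 and replicates 1 and 2 (limma, Benjamini-Hochberg over all genes). Of these 10 fell in replicate 3 (29.4% of the 34, where 12.6% of all genes tested were called lower), namely Slc2a1, Hk2, Pfkp, Pgk1, Eno1, Pkm, Pdk3, Hif1a, Egln1 and Egln3. The other 3 rose, namely Aldoa, Aldoc and Pdha1 (8.82%, where 6.23% of all genes were called higher). The median log2 difference was -0.11 over the 34 genes and -0.06 over all genes tested.

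With libraries rescaled by their median ratio the split was 4 lower and 4 higher, and with quantile normalization 6 lower and 4 higher. The balance of directions thus depends on the scaling. Under these scalings 1468 and 1370 of all 8047 genes were called in either direction. Their shares by direction are not given here, so the split cannot be set against all genes. Hk2, Pgk1, Hif1a and Egln1 (lower) and Aldoc and Pdha1 (higher) passed in all 7 alternatives that used the 6 libraries, and the other 7 genes lost the call in at least 1 of them. Some mesangial or fibroblast markers moved with the same split. Their summed level was 4157 to 4281 FPKM in replicate 3 and 2143 to 2607 FPKM in the other libraries, mostly Col1a1 and Vim. Of the 7 markers with values, Col1a1, Vim and Acta2 were higher in both replicate 3 libraries than in any other, Pdgfrb and Gata3 were lower, and Des and Pdgfra overlapped. The podocyte markers summed to 12.5 to 14.2 FPKM in replicate 3 and 14.9 to 16.4 FPKM in the others. Nearly all of this was Cd2ap, at 13.0 and 11.5 FPKM in replicate 3 of knockdown and control and 13.6 to 15.4 FPKM in the others. Wt1 and Synpo overlapped between replicate 3 and the other libraries. Acta2 measured 58.8 and 56.8 FPKM in replicate 3 of knockdown and control, and 14.5 to 17.3 FPKM in the other 4 libraries, and Pdgfrb 28.9 and 30.7 FPKM in replicate 3 and 34.0 to 38.5 FPKM in the others. Their part in the result was not tested, and in bulk RNA fewer cells of a type and less RNA per cell cannot be told apart.

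All 3 HIF control genes fell in replicate 3. Hif1a averaged 35.0 FPKM in the replicate 3 libraries and 50.2 FPKM in the other 4, a log2 difference of -0.51 (SE 0.08, limma adjusted p = 0.00833). Egln1 averaged 29.9 FPKM in replicate 3 and 37.9 FPKM in the others (-0.33, adjusted p = 0.0199). Egln3 averaged 1.45 FPKM in replicate 3 and 3.76 FPKM in the others (-0.995, SE 0.27, adjusted p = 0.0490), and its call was lost in all 6 alternatives on 6 libraries that tested it (limma adjusted p = 0.0509 to 0.0676). The filter at 5 FPKM left Egln3 out. The gap was wider in control (-1.54) than in knockdown libraries (-0.45), a difference that was not tested.

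The genes of GLUT1, hexokinase 2 and 3 of the 5 lower glycolytic enzymes (Pgk1, Eno1 and Pkm) fell too, and Hk1, Pgam1 and Gapdh did not pass. None of the lactate genes passed. Ldha averaged 77.8 FPKM in replicate 3 and 70.8 FPKM in the others (log2 difference 0.13, limma adjusted p = 0.142). The log2 differences of Ldhb, Slc16a1 and Slc16a3 were -0.06, -0.24 and -0.11. With median-ratio scaling Slc2a1, Eno1 and Pkm lost the call. Slc2a1 averaged 41.5 FPKM in replicate 3 and 50.7 FPKM in the other 4 libraries (log2 difference -0.28, limma adjusted p = 0.0192). Hk2 averaged 6.97 FPKM in replicate 3 and 13.4 FPKM in the others (-0.86, SE 0.15, adjusted p = 0.0120), with no overlap. Pgk1 averaged 500.1 FPKM in replicate 3 and 633.0 FPKM in the others (-0.34, SE 0.04, adjusted p = 0.00333, the smallest of the 34).

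Eno1 averaged 65.6 FPKM in replicate 3 and 78.0 FPKM in the other libraries, and Pkm 341 FPKM in replicate 3 and 387 FPKM in the others. Pfkp averaged 2.85 FPKM in replicate 3 and 4.01 FPKM in the others, and Pdk3 32.4 FPKM in replicate 3 and 38.2 FPKM in the others. Pgam1, between Pgk1 and Eno1 in the pathway, averaged 108 FPKM in replicate 3 and 117 FPKM in the others and did not pass (limma adjusted p = 0.132). Of the pentose phosphate genes none passed, and G6pdx averaged 58.3 FPKM in replicate 3 and 58.4 FPKM in the others, a log2 difference of -0.0016 (95% interval -0.14 to 0.13).

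Both aldolases and the pyruvate dehydrogenase alpha subunit went the other way. Aldoa measured 421 and 454 FPKM in replicate 3 of knockdown and control, against 378, 389, 362 and 362 FPKM in replicates 1 and 2 of knockdown and then control (log2 difference 0.23, limma adjusted p = 0.0324). Aldoc averaged 15.8 FPKM in replicate 3 and 10.5 FPKM in the others (0.57, SE 0.13, adjusted p = 0.0289), and Pdha1 39.6 FPKM in replicate 3 and 29.7 FPKM in the others (0.41, SE 0.06, adjusted p = 0.00868). Mpc2 averaged 3.92 FPKM in replicate 3 and 2.77 FPKM in the others (0.38, adjusted p = 0.0522), just outside the threshold, and passed under 3 of the alternatives. Aldolase was thus higher and phosphoglycerate kinase lower in the same libraries.

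**Figure D4:**
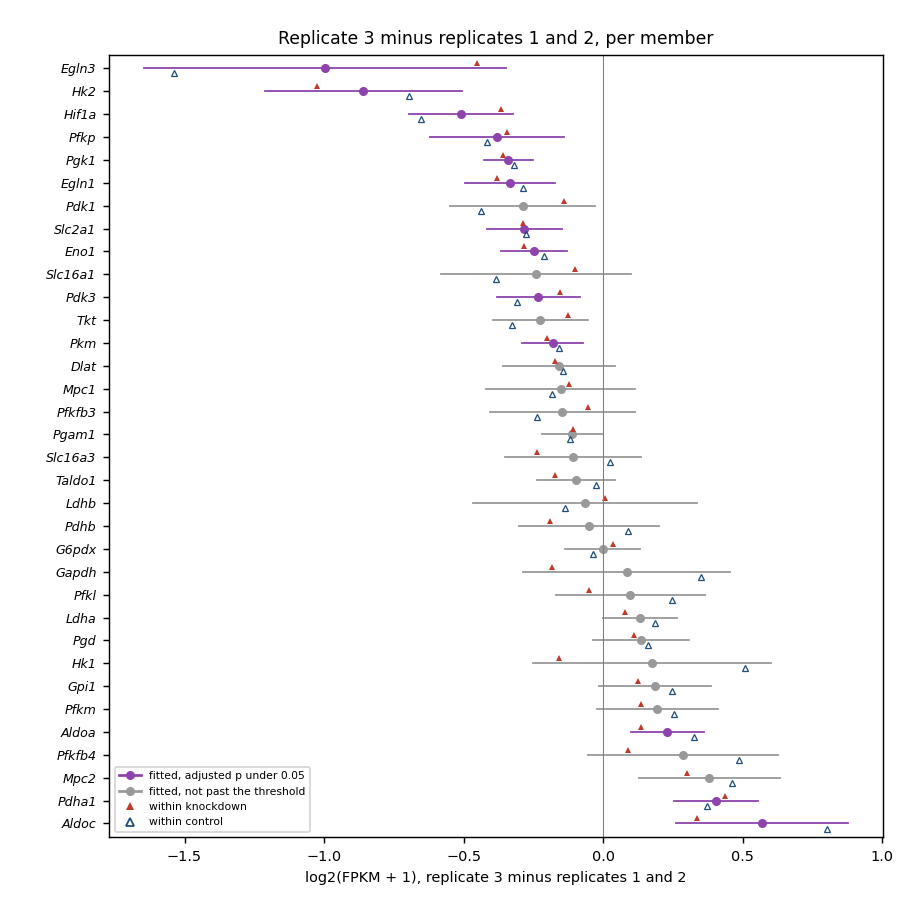
Difference in log2(FPKM + 1) between replicate 3 and replicates 1 and 2 for the 34 genes, with 95% intervals, purple where the limma adjusted p was under 0.05. Filled and open triangles give the difference within knockdown and within control; Egln3, Hk2 and Hif1a lie farthest to the left and Aldoc farthest to the right.

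**Figure D5:**
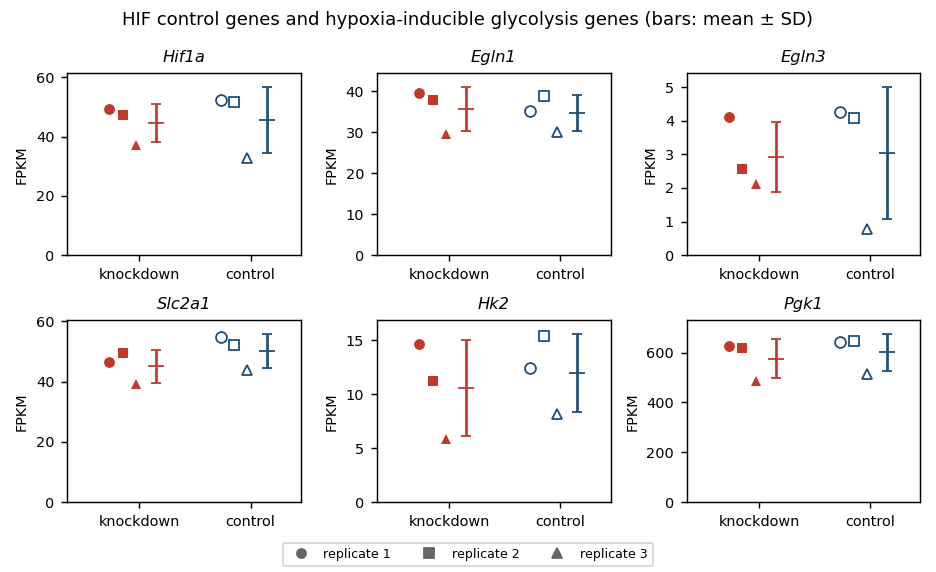
FPKM of 6 genes in knockdown (filled) and control (open) libraries, with mean ± SD (n = 3) beside each group. The triangle of replicate 3 is the lowest point of its group in all 6 panels, which widens the SD of both groups. All 6 genes are among the 10 called lower in replicate 3, and the 3 called higher (Aldoa, Aldoc and Pdha1) are not shown.

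HIF binds DNA at a short core, written here as ACGTG (with A first) or as GCGTG (with G first), so the promoters of genes that moved together are shown for 5 of the 13, chosen after their values were seen: Pgk1, Slc2a1, Hif1a and Egln3, which fell in replicate 3, and Pdha1, which rose. Each is the RefSeq window of 300 bases on GRCm38.p6, from 250 bases before the annotated start to 50 after it, and capitals mark a match of either core on either strand. On the other strand the first core reads CACGT, and the second core reads CACGC there. Matches may overlap, as they do at the palindrome in Hif1a, where 2 of its 3 matches share a run of 6 capitals.
Pgk1, chrX:106186850-106187149, plus strand: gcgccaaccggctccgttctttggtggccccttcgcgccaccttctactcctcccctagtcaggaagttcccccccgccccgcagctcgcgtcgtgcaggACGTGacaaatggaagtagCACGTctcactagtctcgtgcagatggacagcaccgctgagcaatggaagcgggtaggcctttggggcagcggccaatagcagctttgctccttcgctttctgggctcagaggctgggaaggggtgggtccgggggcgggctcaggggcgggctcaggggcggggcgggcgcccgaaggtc
Slc2a1, chr4:119108495-119108794, plus strand: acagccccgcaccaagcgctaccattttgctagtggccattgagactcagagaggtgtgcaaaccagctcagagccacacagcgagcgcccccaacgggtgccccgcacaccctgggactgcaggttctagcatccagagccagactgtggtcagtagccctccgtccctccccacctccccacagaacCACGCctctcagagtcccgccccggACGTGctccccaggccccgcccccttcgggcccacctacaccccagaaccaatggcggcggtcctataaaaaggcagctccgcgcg
Hif1a, chr12:73907617-73907916, plus strand: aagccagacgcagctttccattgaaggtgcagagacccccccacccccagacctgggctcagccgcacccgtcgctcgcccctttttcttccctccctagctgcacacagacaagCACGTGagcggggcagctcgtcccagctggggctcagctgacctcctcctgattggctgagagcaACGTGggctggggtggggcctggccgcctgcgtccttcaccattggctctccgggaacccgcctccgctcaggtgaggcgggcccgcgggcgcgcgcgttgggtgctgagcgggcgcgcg
Egln3, chr12:54203825-54204124, minus strand: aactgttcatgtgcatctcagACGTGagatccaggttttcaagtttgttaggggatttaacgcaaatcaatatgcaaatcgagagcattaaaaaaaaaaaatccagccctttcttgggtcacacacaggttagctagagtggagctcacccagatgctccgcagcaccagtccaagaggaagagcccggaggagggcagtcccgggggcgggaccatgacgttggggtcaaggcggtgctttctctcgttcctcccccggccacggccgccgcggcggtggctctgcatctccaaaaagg
Pdha1, chrX:160138381-160138680, minus strand: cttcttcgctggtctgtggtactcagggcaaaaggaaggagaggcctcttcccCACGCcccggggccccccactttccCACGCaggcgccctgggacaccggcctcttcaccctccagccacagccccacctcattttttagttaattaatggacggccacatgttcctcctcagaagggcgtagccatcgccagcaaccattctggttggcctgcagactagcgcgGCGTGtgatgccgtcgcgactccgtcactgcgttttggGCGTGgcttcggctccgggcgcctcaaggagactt
The windows hold 2, 2, 3, 1 and 4 matches in that order. The pair in Pgk1 stands close together, and among these 5 windows Pdha1, which rose, holds the most. That order does not extend to the called genes not shown. Among those that fell, Pfkp and Pdk3 held at most 4 matches in a window, and Hk2, Eno1, Pkm and Egln1 at most 2. Among those that rose, Aldoc held at most 3 and Aldoa at most 1.

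Such matches are common among promoters. Of the 49 RefSeq windows of the 34 genes, 40 (81.6%) hold at least 1 match, as do 12 of the 13 windows of the 10 genes that fell in replicate 3. Among the genes that rose, 2 of 3 windows of Aldoa, 2 of 2 of Aldoc and 1 of 1 of Pdha1 hold one. Of all 32851 windows 43.8% hold one, and of the 8049 windows of tested genes 64.9%. The windows were not matched for base composition, and a match is a run of letters, not a measured binding site.

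Other genes of the same pathways were counted over 3 lists. Of 64 further glucose metabolism genes 35 were tested, 18 above 0 and 17 below between knockdown and control, with a median log2 fold change of 0.0047 and 0 past the threshold (limma; 3 at an unadjusted p under 0.05). The smallest unadjusted p-values belonged to Prps1, a ribose-phosphate pyrophosphokinase gene (9.54 ± 2.5 FPKM in knockdown and 13.6 ± 1.3 FPKM in control libraries), to Eno3, the muscle enolase (4.58 ± 1.9 FPKM in knockdown and 7.38 ± 1.6 FPKM in control libraries), to Pdk2 and to Txnip. Pdk2, another kinase of pyruvate dehydrogenase, averaged 4.65 ± 0.28 FPKM in knockdown and 3.68 ± 0.45 FPKM in control libraries, and Txnip, a glucose-induced regulator of glucose uptake, 51.6 ± 10.3 FPKM in knockdown and 38.5 ± 8.9 FPKM in control libraries (SD, n = 3 each). Between replicate 3 and the others 4 of the 35 rose (11.4%, where 6.23% of all genes were called higher) and 6 fell (17.1%, where 12.6% were called lower). Among those that fell was the glycogen synthase gene Gys1, at 20.5 FPKM in replicate 3 and 33.9 FPKM in the others (log2 difference -0.70, adjusted p = 0.00277).

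Of 24 further HIF control symbols 20 were tested, 11 above 0 and 9 below, with a median of 0.04 and 0 past the threshold (limma). While 366 of all 8047 genes had an unadjusted p under 0.05, 1 of these 20 did. That gene was Cited2, whose product competes with HIF1A for the coactivators CBP and p300. It measured 58.0, 47.9 and 56.3 FPKM in knockdown replicates 1 to 3, against 31.9, 37.3 and 40.4 FPKM in control replicates 1 to 3. All knockdown libraries lay above all controls, as they did in 6.06% of all genes tested (log2 fold change 0.56, SE 0.12, limma adjusted p = 0.799). Next came Ubxn1, Hsp90ab1 and Arnt2, with log2 fold changes of 0.24, 0.15 and 0.20. No gene of this list passed between replicate 3 and the others in the limma fit.

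Of 42 further hypoxia-inducible genes 28 were tested, 16 above 0 and 12 below between knockdown and control. Their median was 0.02, and 0 passed the threshold (limma). While 366 of all 8047 genes had an unadjusted p under 0.05, 2 of these 28 did. These 2 were Bhlhe40 (17.6 ± 0.26 FPKM in knockdown and 24.3 ± 1.9 FPKM in control libraries) and Vegfa (49.5 ± 2.2 FPKM in knockdown and 63.7 ± 3.4 FPKM in control libraries). Lox, the collagen crosslinking enzyme, averaged 76.8 ± 16.8 FPKM in knockdown and 49.5 ± 21.3 FPKM in control libraries, and Plod1, a collagen lysyl hydroxylase, 18.5 ± 1.3 FPKM in knockdown and 16.6 ± 1.5 FPKM in control libraries (SD, n = 3 each).

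In replicate 3 against the others, 9 of the 28 fell (32.1%, where 12.6% of all genes were called lower) and 4 rose (14.3%, where 6.23% were called higher). With median-ratio scaling 6 fell and 5 rose, where 1468 of all 8047 genes were called in either direction. The 9 that fell were Bnip3, Ndrg1, Plod2, Ero1l, Kdm3a, Mif, Hmox1, Zfp395 and Gys1, which also stands on the glucose list. Ero1l averaged 4.01 FPKM in replicate 3 and 6.10 FPKM in the others (log2 difference -0.50, limma adjusted p = 0.0127). The 4 that rose were Ddit4, Lox, Loxl2 and Tfrc, and Ddit4 averaged 28.9 FPKM in replicate 3 and 17.3 FPKM in the others (0.71, adjusted p = 0.00291).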

How the data were processed

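RNA sequencing of 6 MPC5 libraries was used (3 Mettl3 knockdown, 3 control, by title). The authors' deposited table gives gene-level FPKM (so called in its header), used without further scaling. HISAT2 2.0.4, StringTie 1.2.2, cutadapt 1.17, FastQC 0.11.7, R 2.10.0 and build mm9 appear in the submitters' processing notes, with no role or order. Of the 9120 genes, 9110 matched GENCODE M21 by identifier and 8377 had its GRCm38 span, so coordinates are given on GRCm38. Strand handling and read assignment are not given in the sources used here. A trial for whole reads in the 150 lowest values per library matched at most 28.7% within 0.05 of a read (10% by chance for 1 step), so depth is unknown, and FPKM summed to 173721 to 176526 per library.

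Genes with at least 1 FPKM in 3 or more libraries (8047) were fitted as log2(FPKM + 1) with limma 3.58.1 in R 4.3.3 (intensity trend, two-sided, tested on simulated data), adjusted by Benjamini-Hochberg over all genes, threshold 0.05. This scale understates changes of low genes. Replicate 3 was compared with a term for knockdown. Near-identical copies were sought with BLAST 2.17.0. Replicates are biological per the design text, with no word on separate cultures, so p-values measure only the spread between these libraries. Libraries of the same number deviated together (r = 0.23, 0.20 and 0.56 across genes), so a replicate block was fitted as an alternative. Crossed numbers 1 and 2 correlated as well (0.26 and 0.23).

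Members, lists and the naming rule (by role; library by library for genes that passed a test, did not overlap, were listed at 0 or had the 5 highest or 5 lowest means, and Gapdh, Hif1a and Slc2a1; on the other lists, up to 4 with the smallest p) were chosen with earlier results of these data known.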

Additional observations from a re-analysis of the deposited data

How the results depend on the processing

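Between knockdown and control, 0 of the genes passed in all 17 alternatives, and the median log2 fold change of the 34 genes stayed within the spread between libraries (SD 0.08), from -0.05 to 0.04 when leaving out each library in turn. With the replicate block 0 passed (smallest limma adjusted p = 0.297) and the median was -0.01. Without the block 0 of all 8047 genes were called too, so there was no call to lose. The block was fitted for this comparison only, not for replicate 3. In 22 of the 34 genes the sign of this uncalled difference changed in at least 1 alternative, and 5 of the 10 shares changed sign. The 12 that kept their sign included Slc2a1, Aldoc, Pdha1, Pdhb and G6pdx. For replicate 3 against replicates 1 and 2, the count of 13 (1513 of all 8047 genes) was 8 with median-ratio scaling (1468 of 8047). It was 8 with a robust variance without trend (1372 of 8047) and 10 to 12 in the other alternatives on 6 libraries. The median of -0.11 was -0.035 with median-ratio scaling, -0.064 with quantile normalization and -0.13 within knockdown libraries. The median of all genes was -0.0001 with median-ratio scaling and -0.06 without. None of the 13 changed sign. Within a group 1 library stands against 2 and is assumed to vary like them, so fits within a group are no check on replicate 3. The cause of the lost calls was not tested. Depth is unknown, so no limit of detection can be given.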
